A study of Rattus norvegicus with 6 samples.

Results

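The replication-dependent histone genes of rat PC12 cells were examined in 6 RNA-seq libraries, 3 from control cells and 3 from cells that overexpressed PCBP-1 (PCBP1-OE). Their counts were higher in PCBP1-OE cells mainly through the linker histone gene Hist1h1c, the H2B gene Hist1h2bg and 1 H4 gene row named Hist1h4b, each about 1.3 to 1.4 times the control level. The members were chosen by symbol as every row of the count table whose name begins with Hist1h, Hist2h, Hist3h or Hist4h. This gave 39 of the 20609 rows, 4 for H1, 14 for H2A, 10 for H2B, 4 for H3 and 7 for H4. No count entered the choice of rows, but the gene group itself was selected on results of this same contrast that were already known. The counts of members called below are therefore a description of these libraries and not independent evidence.

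Replication-dependent histones package newly made DNA, and their genes lie in clusters and are expressed mostly in S phase. H2A, H2B, H3 and H4 form the nucleosome core, and H1 binds the linker DNA between nucleosomes. Most of their mRNAs end in a stem-loop in place of a poly-A tail, although some histone genes can also give polyadenylated mRNA. The stem-loop binding protein Slbp and the U7 small nuclear ribonucleoprotein act at that end, and Npat drives transcription at the clusters. PCBP-1 is an RNA-binding protein that binds C-rich sequences and takes part in splicing, stability and translation of mRNAs.

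PC12 is a cell line from a pheochromocytoma of the rat adrenal medulla. Control cells carried a control plasmid, and PCBP1-OE cells carried a PCBP-1 expression plasmid tagged with EGFP that was delivered with Lipofectamine. The paper calls the overexpression constitutive and gives a harvest time for RT-qPCR but not for RNA-seq. The labels give 3 samples per group and do not say whether these were separate transfections, so p-values measure the spread between these samples. Libraries held 19730209 to 22315623 counts on genes, and the 39 histone rows took 0.024% to 0.036% of them. The libraries were poly-A selected, a step that keeps few mRNAs without a tail, and the levels here are those of the histone reads that such libraries retain. No row was matched to Pcbp1, and the overexpression was not analysed here. The defining chromaffin markers were near 0 in all 6 libraries, with at most 3 counts of Chga, 9 of Chgb, 5 of Dbh and 4 of Ddc, while Th had 141 to 185. The summed level of 10 chromaffin marker rows was 9.50 to 10.6 CPM (counts scaled to library size) in control and 9.44 to 10.6 in PCBP1-OE cells. In contrast, the glial marker S100b had 4143 to 5339 counts and the fibroblast marker Pdgfra 3939 to 4941, so the cells are called PC12 here by their label only. The 4 glial marker rows summed to 231 to 257 CPM in control and 222 to 232 in PCBP1-OE libraries, the 3 fibroblast rows to 224 to 229 and 199 to 211, and the 4 leukocyte rows to 3.98 to 4.07 and 2.99 to 3.52. Their part in the results was not tested. In bulk libraries, fewer cells that express a gene and less RNA of it per cell cannot be told apart, and this includes the share of cells in S phase.

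Of the 39 rows, 30 were on chromosome 17, 6 on chromosome 2, 2 on chromosome 10 and 1 on chromosome 4, as the table gives them. In all, 5 symbols stood on more than 1 row, on 14 rows together, with 5 rows for Hist1h4b and 3 for Hist1h2ac. Histone coding sequences are nearly identical between copies, and only uniquely mapped reads were counted, so the split of reads among copies is uncertain. Promoters matched by name to the genes that carry most of the change are shown because genes of 1 histone class share short promoter elements. RefSeq promoters of the assembly GRCr8 were matched to 31 of the 39 rows by symbol or older name, 17 of them one to one, which gave 27 RefSeq genes. RefSeq lists Hist1h1c as an older name of both H1f2 and H1f4, and Hist1h1d as an older name of both H1f4 and H4f3. The RefSeq gene Hist1h4b was matched to more than 1 of the 5 rows of that symbol. Its promoter is therefore not tied to the row with the most counts. The RefSeq gene Hist1h2bg was matched to the row Hist1h2bl as well. The H2B gene H2bc12, which carries the older name Hist1h2bk, is shown beside Hist1h2bg for contrast. Each line is the 150 bases before the annotated start, 5′ to 3′ on the strand of the gene, and capitals mark motif matches on either strand. One motif was AAACACA, the H1 box known from linker histone genes. The CCAAT box and the TATA element, the latter searched as TATAA, were marked as well. The last motif was ATTTGCAT, the octamer known from H2B promoters. The positions are chr17:41820454-41820603 (minus strand) for H1f2, chr17:41914275-41914424 (plus) for H1f4, chr17:41980342-41980491 (minus) for H4f3, chr17:41999119-41999268 (plus) for Hist1h2bg, chr17:47181941-47182090 (minus) for H2bc12 and chr17:47176096-47176245 (plus) for Hist1h4b.
H1f2: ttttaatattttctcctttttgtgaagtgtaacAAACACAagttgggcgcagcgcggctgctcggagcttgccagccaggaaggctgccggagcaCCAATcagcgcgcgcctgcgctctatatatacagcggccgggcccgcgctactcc
H1f4: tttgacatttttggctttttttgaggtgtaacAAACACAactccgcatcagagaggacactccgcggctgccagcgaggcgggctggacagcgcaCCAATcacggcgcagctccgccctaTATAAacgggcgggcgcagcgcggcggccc
H4f3: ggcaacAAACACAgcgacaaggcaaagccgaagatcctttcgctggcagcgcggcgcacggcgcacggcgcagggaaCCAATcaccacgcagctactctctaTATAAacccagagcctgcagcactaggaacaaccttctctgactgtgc
Hist1h2bg: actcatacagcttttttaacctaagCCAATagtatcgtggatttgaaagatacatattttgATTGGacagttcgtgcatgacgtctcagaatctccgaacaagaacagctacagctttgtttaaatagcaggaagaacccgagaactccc
H2bc12: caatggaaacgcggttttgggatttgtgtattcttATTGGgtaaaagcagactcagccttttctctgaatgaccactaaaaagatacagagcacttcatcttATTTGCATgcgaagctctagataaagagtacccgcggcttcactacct
Hist1h4b: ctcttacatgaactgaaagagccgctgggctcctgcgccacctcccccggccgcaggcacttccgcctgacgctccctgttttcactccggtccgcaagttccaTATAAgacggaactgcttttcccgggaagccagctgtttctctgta

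Within 250 bases before the start, AAACACA was present in all 5 promoters matched to H1 rows, in 2 of 10 H2A promoters, in 2 of 10 H2B promoters and in neither of the 2 H4 promoters, against 6.08% of 33469 rat promoters. One of the 5 is H4f3, which has the symbol of an H4 gene and was counted with H1 because RefSeq gives it the older name Hist1h1d. It began 117 bases before the start in H1f2 and 118 in H1f4. CCAAT was present in 24 of the 27 histone promoters and in 34.0% of all promoters, and the Hist1h2bg promoter has it on both strands. TATAA was present in 24 of the 27 and in 24.0% of all promoters. The octamer was present in 5 of 10 H2B promoters and 4 of 10 H2A promoters, in none of the 5 promoters matched to H1 rows and in 1.56% of all promoters. The Hist1h2bg promoter held no octamer with these exact letters, and neither did those of H2bc8, H2bc9, Hist1h2bo and Hist3h2ba. H2bc12 held it 48 bases before the start. Some H2A and H2B promoters overlap on opposite strands, as H2ac1 does with H2bc1 and Hist1h2ac with H2bc9. The counts for these classes are therefore not all of separate stretches. These matches describe letters in a window and were not tested for binding.

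All 4 members past the threshold were higher in PCBP1-OE cells, and none was lower. Genes were tested with the quasi-likelihood test of edgeR, and p was adjusted by Benjamini-Hochberg over 12624 genes, of which 27 were histone rows. Among all genes tested, 4.45% passed an FDR of 0.05 as higher and 5% as lower. A further 12 histone rows had too few counts for the test. No member passed the FDR with a 2-fold change. Without adjustment, 7 of the 27 had p under 0.05 by edgeR as higher and 0 as lower. Over all 12624 genes tested, 1722 had such a p as higher and 1866 as lower. DESeq2, limma-voom and edgeR's exact test also called 4 histone rows higher and 0 lower. In the same order, they called 666, 573 and 794 of all 12624 genes higher and 752, 624 and 807 lower. The log2 fold change was above 0 for 22 of the 27, with a median of 0.31 and a range of -0.46 to 0.91, while the median over all 12624 genes was 0.003 with 50.5% of genes above 0. In 8 of the 27 rows every PCBP1-OE library exceeded every control, and in none was every one below. Over all genes tested, the groups did not overlap for 14.1% with PCBP1-OE higher and for 16.5% with PCBP1-OE lower.

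**Figure D1:**
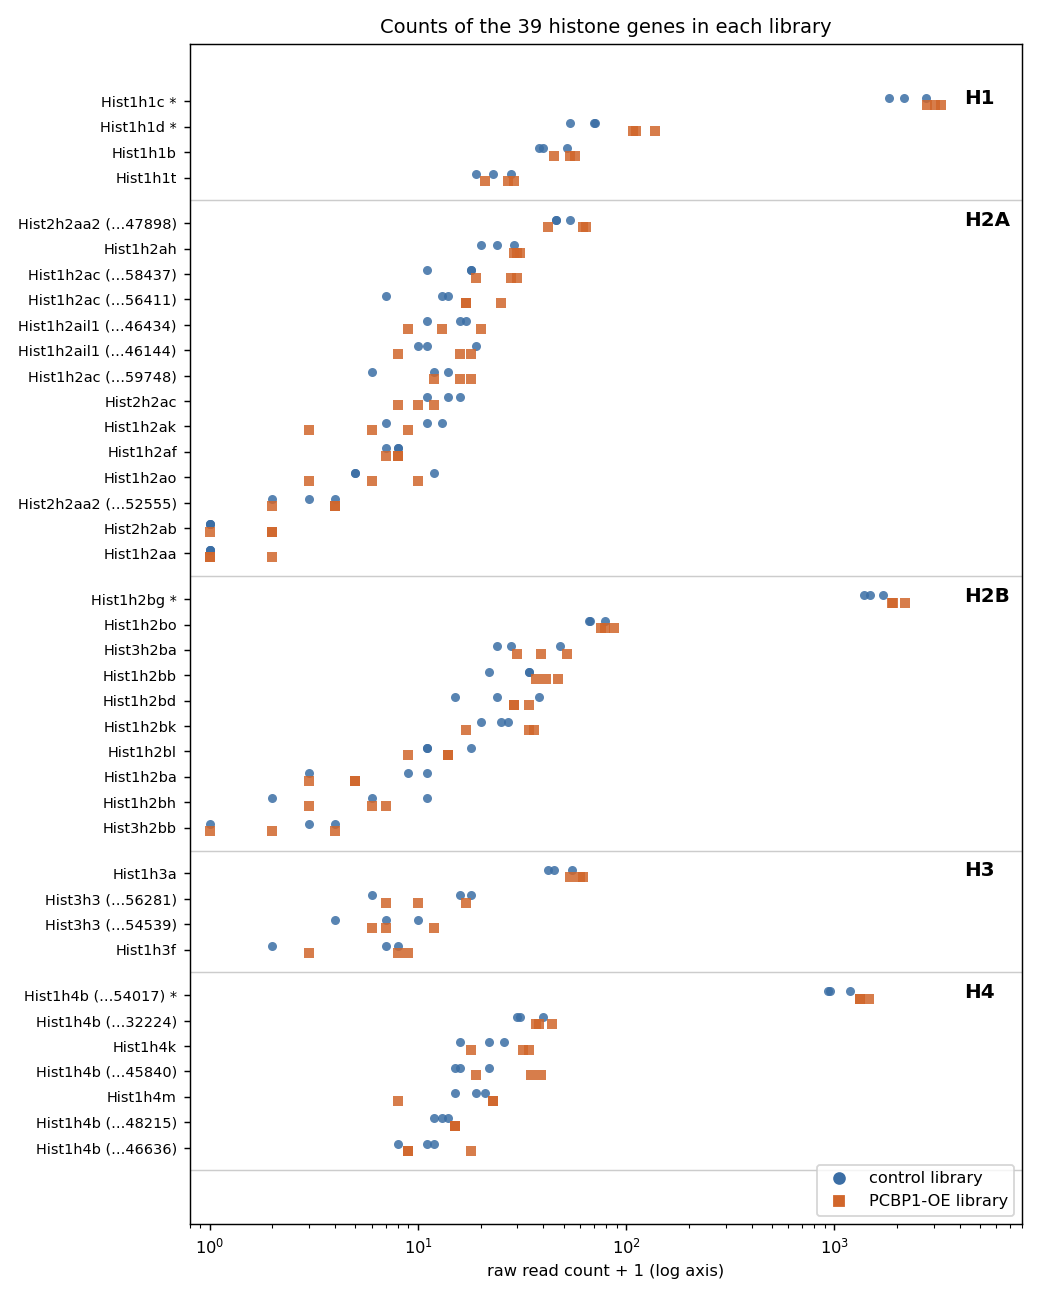
Raw read count plus 1 (log axis) of each of the 39 histone rows in each library, grouped by class and ordered by total count. Circles are the 3 control libraries and squares the 3 PCBP1-OE libraries, an asterisk marks an adjusted p of 0.05 or less, and Hist1h1c, Hist1h2bg and 1 Hist1h4b row lie far to the right of the other 36.

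Linker histone genes gave 2 of the 4 calls. Hist1h1c (ENSRNOG00000054978, chromosome 17), a linker histone expressed widely in somatic cells, had 1822, 2168 and 2745 counts in the control libraries and 3251, 3034 and 2774 in PCBP1-OE libraries. Each PCBP1-OE library exceeded each control, although PCBP1-OE replicate 3 had nearly the raw count of control replicate 3. The mean level was 106 ± 14.9 CPM (SD, n = 3) in control and 147 ± 4.46 in PCBP1-OE cells, a log2 fold change of 0.46 (SE, the standard error, 0.076; adjusted p = 0.00835 by edgeR). Without control replicate 2 the adjusted p was 0.0697 by the same test. Hist1h1c held 94.2% of all H1 reads. Hist1h1d (ENSRNOG00000047459, chromosome 17), another somatic linker histone, had 69, 70 and 53 counts in control and 107, 111 and 136 in PCBP1-OE libraries. Its groups were well apart, and its log2 fold change of 0.91 (SE 0.20, adjusted p = 0.0179 by edgeR) was the largest of the 27. Its adjusted p by edgeR was 0.0798 without control replicate 2, 0.0624 without PCBP1-OE replicate 2 and 0.0614 without PCBP1-OE replicate 3. Hist1h1d counts were 1.93% to 3.79% of those of Hist1h1c in control and 3.29% to 4.90% in PCBP1-OE libraries, so the ratio of the 2 genes overlapped between groups. The other H1 rows were Hist1h1b, with 37 to 51 counts in control and 44 to 56 in PCBP1-OE libraries, and Hist1h1t, the testis-type H1, with 18 to 27 and 20 to 28. Neither passed the test, with adjusted p of 0.435 and 0.733 by edgeR.

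The H2B class had 1 call. Hist1h2bg (ENSRNOG00000021198, chromosome 17) had 1390, 1487 and 1709 counts in control and 2187, 1882 and 1913 in PCBP1-OE libraries. Its level was 72.8 ± 2.98 CPM (SD, n = 3) in control and 96.7 ± 3.09 in PCBP1-OE cells, and the groups did not overlap. The log2 fold change was 0.41 (SE 0.048, adjusted p = 0.00131 by edgeR), and it passed the FDR with each library left out in turn. Hist1h2bg held 88.8% of H2B reads. Hist1h2bb had the largest change of the class, with 33, 21 and 33 counts in control and 36, 46 and 40 in PCBP1-OE libraries. Its log2 fold change was 0.51 (SE 0.26) and did not pass the test (adjusted p = 0.21 by edgeR). The other 5 tested H2B rows, Hist1h2bo, Hist1h2bd, Hist1h2bk, Hist1h2bl and Hist3h2ba, had 8 to 86 counts per library and log2 fold changes of -0.10 to 0.32.

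The H4 class also had 1 call, on the row ENSRNOG00000054017 of Hist1h4b on chromosome 17. It had 949, 932 and 1187 counts in control and 1459, 1322 and 1327 in PCBP1-OE libraries. The groups did not overlap, at 66.5 ± 1.14 CPM (SD, n = 3) against 48.7 ± 4.15. The log2 fold change was 0.45 (SE 0.061, adjusted p = 0.00266 by edgeR), and the row passed the FDR with each library left out in turn. This row held 90.7% of H4 reads. Another row of the same symbol, ENSRNOG00000045840 on chromosome 4, had the largest log2 fold change of the class at 0.88 (SE 0.34). It had 14, 15 and 21 counts in control and 18, 34 and 38 in PCBP1-OE libraries, so the groups overlapped and it did not pass the test (adjusted p = 0.113 by edgeR). The other 4 tested H4 rows, Hist1h4k, Hist1h4m and 2 more rows of Hist1h4b, had 7 to 43 counts per library and log2 fold changes of -0.007 to 0.42.

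No H2A row passed the test, and each had few counts. The H2A row with the most reads was Hist2h2aa2 (ENSRNOG00000047898, chromosome 2), with 53, 45 and 45 counts in control and 41, 61 and 63 in PCBP1-OE libraries. Its groups overlapped, and its log2 fold change was 0.24 (SE 0.24, adjusted p = 0.556 by edgeR). The largest change of the class was at Hist1h2ac (ENSRNOG00000056411), with 13, 12 and 6 counts in control and 16, 16 and 24 in PCBP1-OE libraries. Its groups did not overlap, but its log2 fold change of 0.87 had an SE of 0.40 and an adjusted p of 0.172 by edgeR. The other 6 tested H2A rows had 5 to 30 counts per library and log2 fold changes of -0.46 to 0.77.

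No H3 row passed the test. Hist1h3a (ENSRNOG00000050478, chromosome 17) had 44, 54 and 41 counts in control and 59, 53 and 61 in PCBP1-OE libraries. In CPM its groups were just apart, at 2.22 ± 0.38 CPM (SD, n = 3) in control and 2.81 ± 0.27 in PCBP1-OE cells, with a log2 fold change of 0.34 (SE 0.20, adjusted p = 0.297 by edgeR). The tested row of Hist3h3 had 5 to 17 counts in control and 6 to 16 in PCBP1-OE libraries. The 12 rows left out of the test were Hist1h2aa, Hist1h2af, Hist1h2ak, Hist1h2ao, Hist2h2ab and 1 row of Hist2h2aa2 among the H2A genes, Hist1h2ba, Hist1h2bh and Hist3h2bb among the H2B genes, Hist1h3f and 1 row of Hist3h3 among the H3 genes, and 1 row of Hist1h4b. They had 0 to 17 counts per library.

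**Figure D2:**
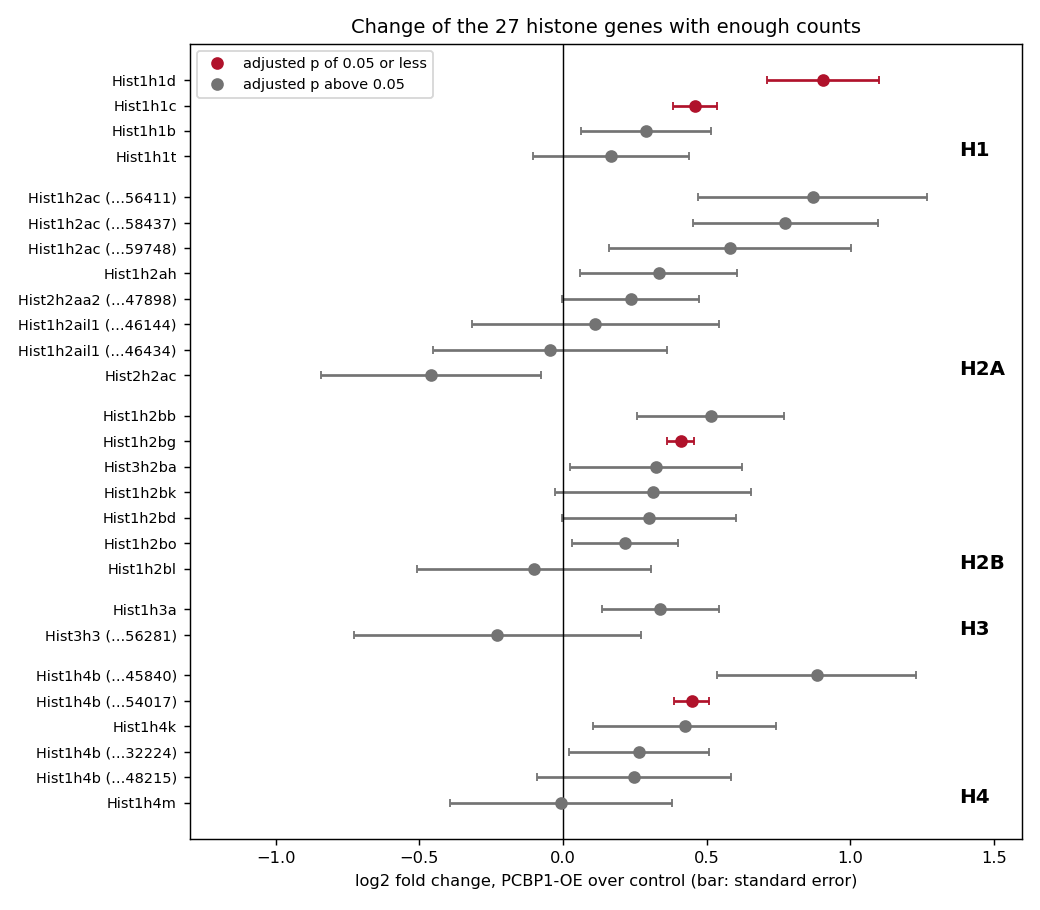
Log2 fold change, PCBP1-OE over control, of the 27 tested histone rows by class, with bars for 1 SE from edgeR. The 4 rows with an adjusted p of 0.05 or less lie between 0.41 and 0.91, and the standard errors of the other 23 are 0.18 to 0.50.

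The 23 tested members that did not pass had levels of 0.469 to 3.35 CPM in control cells, and their standard errors were 0.18 to 0.50. Of these, 18 had a log2 fold change above 0, with a median of 0.29. The intervals of 2 standard errors included 0 for 20 of them and the log2 ratio of the summed members, 0.43, for 22. Both values lay inside the interval for 19. At this depth, for these 19, a change of that size could not be told from none.

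Counts of all members of a class were then summed in each library. No test was run on the sums, since the members were taken up with results known, and reads were not divided by transcript length, so classes are compared between groups and not with each other. The sum of all 39 members was 248, 251 and 282 CPM in control and 349, 352 and 352 in PCBP1-OE libraries, a ratio of 1.35. The lowest PCBP1-OE library was clearly above the highest control. H1 was at 113 ± 14.0 CPM (SD, n = 3) in control and 156 ± 3.45 in PCBP1-OE cells, a ratio of 1.39. H2B was at 82.5 ± 3.33 and 108 ± 2.04 CPM, a ratio of 1.31, and H4 at 53.8 ± 4.14 and 73.2 ± 1.07 CPM, a ratio of 1.36. In these 3 classes the groups did not overlap. For H2B this was Hist1h2bg, since the other 9 rows summed to 9.75 ± 0.50 and 11.6 ± 1.69 CPM with overlap between groups. H2A was at 8.09 ± 0.97 CPM in control and 9.62 ± 1.31 in PCBP1-OE cells, and H3 at 3.33 ± 0.49 and 3.94 ± 0.23, with overlap between groups in both. By cluster, the Hist1 genes held 98.1% of the histone reads and were at 255 ± 18.5 CPM in control and 345 ± 0.35 in PCBP1-OE cells without overlap, while Hist2 (2.98 ± 0.25 and 3.28 ± 0.72 CPM) and Hist3 (2.48 ± 0.51 and 2.85 ± 0.93 CPM) overlapped.

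**Figure D3:**
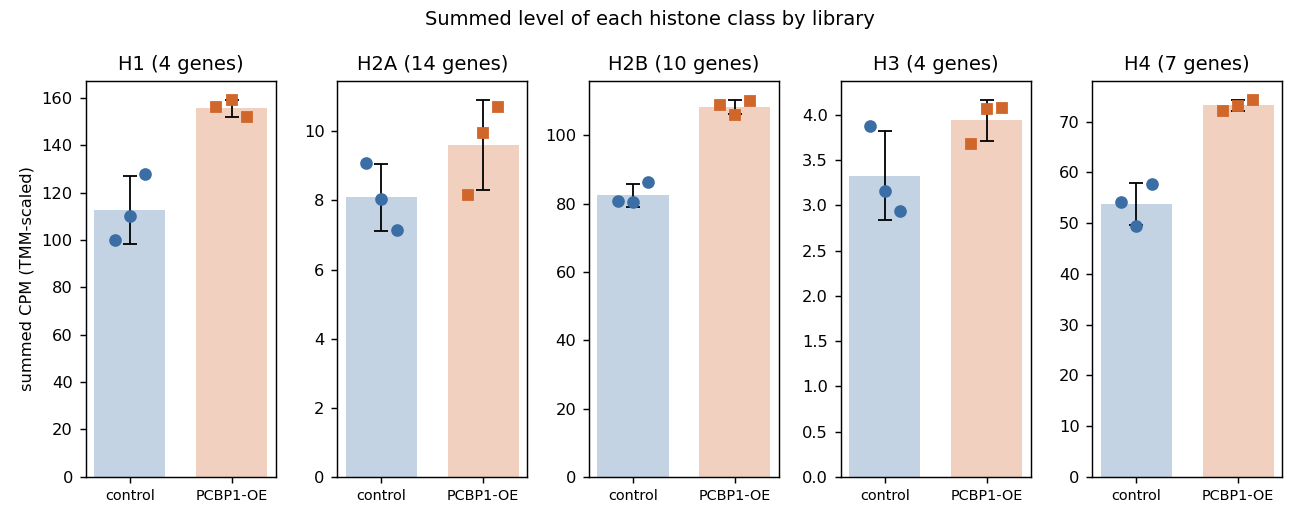
Summed TMM-scaled CPM of the rows of each histone class, with 1 point per library, bars for the mean and error bars for the SD of 3 libraries. Control and PCBP1-OE points are apart for H1, H2B and H4 and overlap for H2A and H3, and each panel has its own axis from 0.

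Hist1h1c, Hist1h2bg and the leading Hist1h4b row, the 3 with at least 500 counts in every library, held 88.0% of all histone reads. Together they were at 212, 220 and 252 CPM in control and 313, 309 and 307 in PCBP1-OE libraries. The counts of Hist1h2bg were 62.3% to 76.3% of those of Hist1h1c in control and 62.0% to 69.0% in PCBP1-OE libraries, and those of the Hist1h4b row 43.0% to 52.1% and 43.6% to 47.8%. Both ratios overlapped between groups, so the proportions among these 3 genes did not differ beyond the spread of the libraries. The 36 other rows summed to 35.9, 31.3 and 30.4 CPM in control and 36.0, 43.3 and 44.6 in PCBP1-OE libraries. Here PCBP1-OE replicate 1 was next to control replicate 1, and the ratio of the means was 1.27. RNAs that mostly lack a poly-A tail (snRNA, snoRNA, scaRNA and rRNA rows, 599 in all) were at 93.3, 82.9 and 76.4 CPM in control and 80.4, 102 and 113 in PCBP1-OE libraries. The 318 snoRNA rows, the type with the most rows and counts, were at 62.7, 60.3 and 55.6 CPM in control and 53.7, 55.6 and 55.3 in PCBP1-OE libraries, and did not share the order of the sum. The rRNA rows were at 20.5, 12.0 and 11.9 CPM in control and 15.7, 31.8 and 42.9 in PCBP1-OE libraries. The scaRNA rows were at 2.5, 2.3 and 2.05 CPM in control and 2.72, 4.66 and 4.39 in PCBP1-OE libraries, without overlap. The snRNA rows were at 7.55, 8.34 and 6.91 CPM in control and 8.3, 10.2 and 10.5 in PCBP1-OE libraries, with overlap. PCBP1-OE replicates 2 and 3 were the highest both in the sum of these RNAs and in the 36 other histone rows, whereas PCBP1-OE replicate 1 was as high as the other PCBP1-OE libraries in the 3 leading genes. The part of these RNAs in the result was not tested. None of the 37 such rows with enough counts passed the FDR by edgeR.

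**Figure D4:**
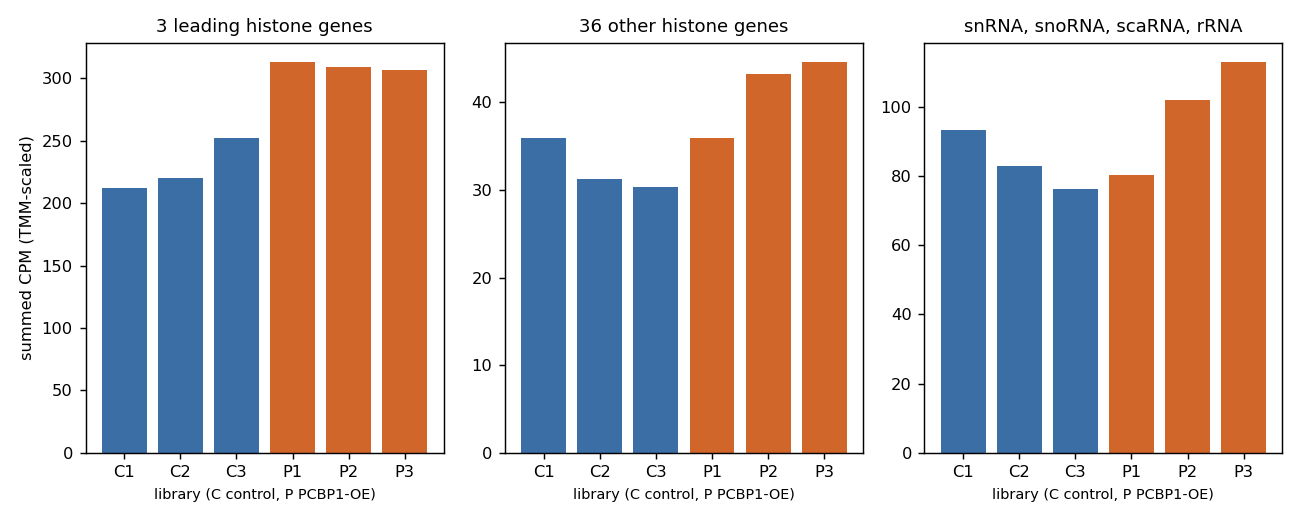
Summed TMM-scaled CPM per library (C, control; P, PCBP1-OE) of the 3 leading histone genes, of the 36 other histone rows and of snRNA, snoRNA, scaRNA and rRNA rows, each panel with its own axis from 0. All PCBP1-OE bars are above the controls on the left, while P1 is level with C1 in the middle panel and below C1 on the right.

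Genes that act on histone mRNA passed the test about as often as all genes did. The list held 37 genes for histone gene transcription and for processing, binding and decay of histone mRNA, and 35 rows were tested. Of these, 1 was higher and 2 were lower, with a median log2 fold change of -0.010. Over all genes tested, 4.45% passed as higher and 5% as lower. Slbp, which binds the stem-loop, had 2792, 2766 and 3213 counts in control and 3191, 2852 and 2920 in PCBP1-OE libraries. Its groups overlapped, and the log2 fold change was 0.057 (SE 0.047, adjusted p = 0.453 by edgeR). Npat, the coactivator at histone clusters, had 497, 593 and 647 counts in control and 782, 599 and 667 in PCBP1-OE libraries. In CPM its groups were just apart, at 27.5 ± 1.91 and 33.1 ± 3.02 CPM (SD, n = 3), with a log2 fold change of 0.26 (SE 0.082, adjusted p = 0.0597 by edgeR), and the alternatives gave adjusted p of 0.00916 to 0.24. Zcchc6, a terminal uridylyltransferase, was higher, with 320, 305 and 464 counts in control and 520, 500 and 438 in PCBP1-OE libraries and a log2 fold change of 0.45 (SE 0.12, adjusted p = 0.0313 by edgeR). Lsm2, a subunit of the Lsm ring that binds RNA 3′ ends, fell by 0.32 on the log2 scale (adjusted p = 0.0237 by edgeR), and Srrt, a partner of the nuclear cap-binding complex, fell by 0.23 (adjusted p = 0.0337). The list had 0 calls when replicate 1 or 2 of either group was left out, and 2 when PCBP1-OE replicate 3 was. It had 14 without control replicate 3, 3 higher and 11 lower. In the fits with 0 calls the log2 fold changes were 0.35 to 0.45 for Zcchc6, -0.31 to -0.26 for Lsm2 and -0.24 to -0.15 for Srrt, and calls over all genes fell from 1193 to between 48 and 246. In the 4 fits with 0 calls, 3 to 5 genes in each direction had an unadjusted p under 0.05 by edgeR. Over all 12785 to 12842 genes tested in these fits, 1251 to 1445 were higher and 1210 to 1433 lower by the same measure.

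Replication-independent histone variants are not limited to S phase, and most are made from polyadenylated mRNA. Of 17 such genes, 9 were found, on 10 rows, and 8 rows were tested. H1f0 and H3f3a were not analysed here. The H3f3b row on chromosome 10 (ENSRNOG00000006532), which encodes H3.3, had 49353, 54824 and 58516 counts in control and 62566, 56646 and 59089 in PCBP1-OE libraries. In CPM its groups did not overlap, and its log2 fold change was 0.16 (adjusted p = 0.042 by edgeR), a call that edgeR's exact test did not make and that, with 1 library left out, held only without control replicate 3. A second H3f3b row on chromosome 13 was at -0.14 (adjusted p = 0.0743 by edgeR). All histone members together had 9.86%, 9.56% and 10.8% as many counts as the chromosome 10 row in control and 12.3%, 12.6% and 11.7% in PCBP1-OE libraries, so the histone genes were also higher relative to this polyadenylated histone mRNA. H2afv, an H2A.Z variant, fell by 0.28 on the log2 scale (adjusted p = 0.0118 by edgeR), which did not pass when replicate 1 or 2 of either group was left out. H2afx, the variant phosphorylated at DNA breaks, was at -0.19 (adjusted p = 0.0852 by edgeR), and H2afz at -0.13 (adjusted p = 0.093).

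Genes of DNA replication and S phase that passed the test were lower in PCBP1-OE cells. Of 40 such genes, all tested, 10 passed as lower and 0 as higher by edgeR, and the median log2 fold change was -0.14. Among all genes tested, 5% passed the same FDR as lower and 4.45% as higher. Of the 40, 34 had a log2 fold change below 0, and 20 had every PCBP1-OE library under every control. Of all genes tested, 16.5% had every PCBP1-OE library under every control, and 50.5% had a log2 fold change above 0. By unadjusted p under 0.05, 19 of the 40 were lower and 1 was higher, against 1866 and 1722 of all 12624 genes by the same edgeR test. DESeq2, edgeR's exact test and limma-voom called 11, 12 and 10 of the list lower and 0 higher. In the same order, they called 752, 807 and 624 of all 12624 genes lower and 666, 794 and 573 higher. Tk1, the thymidine kinase of S phase, had 3497, 3485 and 3381 counts in control and 2736, 2586 and 2570 in PCBP1-OE libraries, and fell by 0.37 on the log2 scale (SE 0.058, adjusted p = 0.00586 by edgeR). E2f1, a transcription factor of the G1 to S transition, had 1051, 1168 and 1158 counts in control and 999, 849 and 797 in PCBP1-OE libraries, and fell by 0.33 (adjusted p = 0.00978 by edgeR). Of the 6 subunits of the MCM helicase, 3 passed the test. Mcm3 fell by 0.26, Mcm7 by 0.22 and Mcm2 by 0.20, and Rfc2, a clamp loader subunit, by 0.21, with adjusted p of 0.00777 to 0.022 by edgeR. The other 3 subunits did not pass, with log2 fold changes of -0.015 for Mcm4, -0.14 for Mcm5 and -0.14 for Mcm6 and adjusted p of 0.864, 0.0754 and 0.0587 by edgeR. Pcna, the sliding clamp, was at 351 ± 6.53 CPM in control and 332 ± 17.8 in PCBP1-OE cells (SD, n = 3) and did not pass (adjusted p = 0.282 by edgeR). The number of calls moved with the libraries used. Leaving out 1 control library gave 5 calls (replicate 1), 0 (replicate 2) or 18 (replicate 3), and leaving out 1 PCBP1-OE library gave 3, 2 or 6 in the same order. These calls were lower, except 1 of the 18 without control replicate 3, and without a filter on low counts 14 genes were lower and 1 was higher. Tk1 and Mcm3 did not pass without control replicate 2, and E2f1 did not pass without it or without PCBP1-OE replicate 2. Mcm7 did not pass when replicate 1 or 2 of either group was left out, and Mcm2 and Rfc2 passed only without control replicate 3 among these fits. Without control replicate 2, 16 of the 40 genes were still lower and 0 higher by unadjusted p under 0.05. In that fit 1210 of all 12815 genes tested were lower and 1251 higher by the same measure.

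Genes of G2 and M phase were lower as well. Of 14 tested, 11 were lower and 0 higher by edgeR, with a median log2 fold change of -0.29. Among all genes tested, 5% passed the same FDR as lower and 4.45% as higher. For the list, the same 11 against 0 came from DESeq2, limma-voom, edgeR's exact test and an unadjusted p under 0.05. DESeq2, limma-voom and the exact test called 752, 624 and 807 of all 12624 genes lower and 666, 573 and 794 higher. Over all 12624 genes, 1866 were lower and 1722 higher by unadjusted p under 0.05 in edgeR. Plk1, a mitotic kinase, had 2231, 2319 and 2507 counts in control and 1925, 1739 and 1647 in PCBP1-OE libraries. It fell by 0.39 on the log2 scale (SE 0.042, adjusted p = 7.79e-04 by edgeR). Cdk1, the mitotic cyclin-dependent kinase, had 3526, 3597 and 3533 counts in control and 2708, 2526 and 2637 in PCBP1-OE libraries, and fell by 0.41 (adjusted p = 0.00263 by edgeR). Cdc20, Aurkb, Top2a and Nusap1, which act in chromosome segregation, fell by 0.28, 0.29, 0.28 and 0.33, with adjusted p of 0.00839 to 0.0111 by edgeR. Plk1 and Cdk1 passed with each library left out in turn. Cdc20 did not pass without control replicate 2, Aurkb without control replicate 2 or PCBP1-OE replicate 2, and Top2a and Nusap1 without either of these or control replicate 1. Leaving out 1 control library gave 5 calls (replicate 1), 2 (replicate 2) or 11 (replicate 3), and leaving out 1 PCBP1-OE library gave 7, 4 or 8 in the same order. In these libraries the called histone genes were higher while the called S-phase, G2 and M genes were lower, in the same 6 samples and the same fit.

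**Figure D5:**
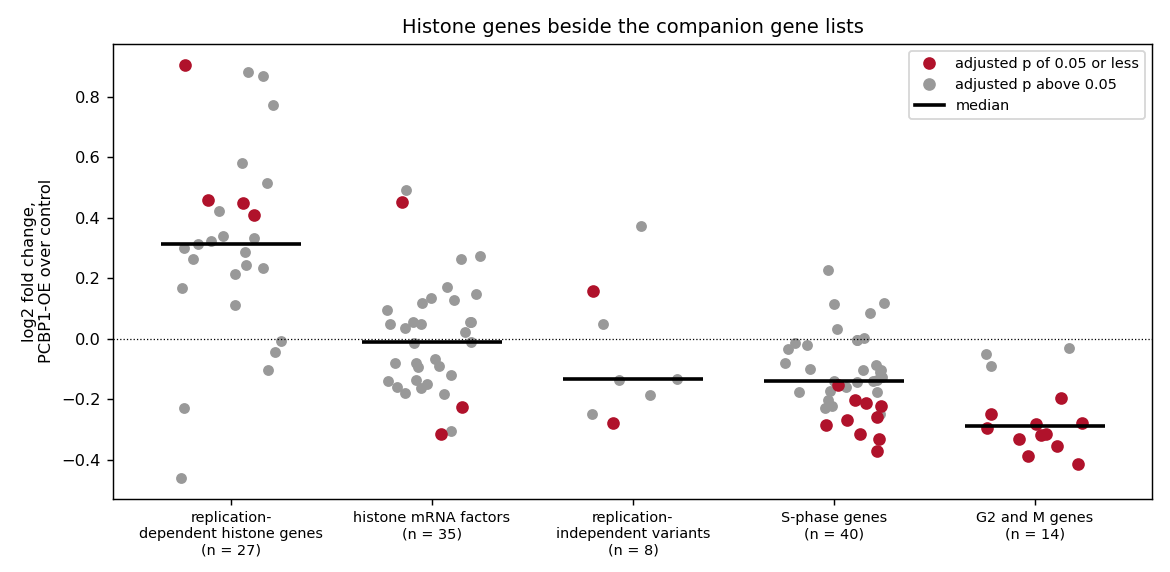
Log2 fold change, PCBP1-OE over control, of the tested histone rows and of the tested genes of 4 other lists, with 1 point per row, red for an adjusted p of 0.05 or less and a black line at the median. The medians are 0.31 for the histone genes, -0.010 for histone mRNA factors, -0.13 for replication-independent variants, -0.14 for S-phase genes and -0.29 for G2 and M genes.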

How the data were processed

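RNA-seq of 3 control and 3 PCBP1-OE libraries of PC12 cells was analysed, each matched to its group by its label. The authors deposited raw read counts per gene. According to the paper, FASTX-Toolkit trimmed the reads, TopHat2 aligned them to Rnor_6.0, and uniquely mapped reads were counted. The submitters' processing notes name GRCh38, but the gene IDs are those of rat. The labels name a VAHTS and the paper a KAPA kit, both for stranded mRNA libraries. How reads were assigned to genes (tool, strand, annotation release) is not given in the sources used here. Total counts of 19730209 to 22315623 per library limit the precision of genes with few reads.

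Counts were tested with edgeR 4.0.16 (R 4.3.3), using TMM scaling, filterByExpr (minimum count 10, minimum total count 15) and the quasi-likelihood test, with Benjamini-Hochberg adjustment over 12624 of 20609 genes. CPM are counts scaled by the TMM library size. Groups were compared without a block. The fit was repeated with scaling by RLE or by the upper quartile, without a filter or with a minimum of 1 CPM in 3 libraries, with DESeq2 1.42.0, limma-voom (limma 3.58.1) or the exact test of edgeR, with a block for the replicate number, and without each library in turn. The steps were tested on simulated data. The histone genes and all lists were chosen with earlier results of these data known, and the alternatives for the G2 and M list were chosen after seeing the data. Named members passed the FDR, had the most counts of their class or the largest absolute fold change of it. Named genes of other lists were up to 6 past the FDR by smallest p, plus Slbp, Npat, H1f0, H2afx, H2afz, H3f3a, H3f3b and Pcna. Promoters came from a RefSeq table of GRCr8, a build other than that of the counts, so matches were by name only.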

Additional observations from a re-analysis of the deposited data

How the results depend on the processing

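Hist1h2bg and the leading Hist1h4b row passed the FDR under all 14 alternatives, with log2 fold changes of 0.39 to 0.44 and 0.40 to 0.52. Under the 7 alternatives of scaling, filter and test, the same 4 histone genes passed. With 1 library left out, 2 to 4 histone genes passed (2 without control replicate 2, 3 without PCBP1-OE replicate 2 or 3). Among the class sums and the genes named by the rules above, no available log2 value reversed in direction. The direction of the other members was not followed across the alternatives. With 1 library left out, calls over all genes went from 1193 to between 48 and 2860, histone mRNA factors from 3 to between 0 and 14, variants from 2 to between 0 and 4, S-phase genes from 10 to between 0 and 18, and G2 and M genes from 11 to between 2 and 11. With no filter, 2090 genes, 7 factors and 4 variants passed. Upper-quartile scaling, DESeq2 and edgeR's exact test each called 5 factors, and the exact test called 1 variant. The cause was not tested. Without the leading row of each class, the log2 ratio of the sums was 0.35 for all members (0.43 with it), 0.61 for H1 (0.47), 0.25 for H2B (0.39, groups then overlapping) and 0.036 for H3 (0.24).

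Deviations from the group mean of libraries with the same replicate number had correlations of -0.0776, -0.0514 and -0.0428. Libraries of the same number thus did not deviate together over the genes tested. A small shared deviation could be missed this way, and the labels do not say whether the numbers mark pairs. With the replicate number as a block, 2 histone genes passed the FDR by edgeR, Hist1h2bg and Hist1h4b (adjusted p = 0.042 and 0.0482), while Hist1h1c was at 0.0858 and Hist1h1d at 0.119. The block left 16 calls over all genes, 0 factors (4 higher and 5 lower by unadjusted p under 0.05), 0 variants (1 and 5), 0 S-phase genes (0 and 19) and 1 G2 and M gene. Over all 12624 genes tested with the block, 1363 were higher and 1367 lower by unadjusted p under 0.05. Reads per gene limit the rest, since 30 of the 39 histone rows had fewer than 50 counts in every library.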
